A study of Mus musculus with 33 samples.

Results

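The genes described here encode the proteins of the cytosolic ribosome in mouse liver. They were chosen by name alone, as symbols of the form Rps or Rpl followed by a number, together with Rplp0, Rplp1, Rplp2 and Rpsa. The Rps6k kinases and 1 pseudogene, Rps4l, were left out. The array annotation named 58 such genes among 19057 genes with a named probe, and each gene was read from its brightest probe. RefSeq lists 81 genes under the same rule, and 23 of them, among them Rpl5, Rpl11, Rpl10, Rpl10l, Rps27 and Rps27a, had no probe named here. Of the 58, 54 were above the estimated background on at least 3 arrays and were tested within the 14302 genes that met this criterion. The 54 comprise 22 genes of the small subunit, 29 of the large subunit and the 3 genes of the ribosomal stalk.

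RNA was hybridised to 33 Illumina bead arrays in 7 groups. Normal livers came from mice carrying floxed alleles of Sav1 (Sav1 flox, livers 1 to 3), floxed alleles of Mst1/2 (Mst1/2 flox, livers 4 to 6) or neither (Wt, livers 7 and 8). Sav1 -/- mice gave 11 hepatocellular carcinomas and 7 samples of surrounding liver, and Mst1/2 -/- mice gave 4 carcinomas and 3 samples of surrounding liver. The labels give no age, and they name neither the promoter that drove recombination nor the animal behind each array, and each p-value therefore reflects only variation among arrays, part of which may be technical.

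The mature ribosome joins a small subunit, which reads the messenger RNA, to a large subunit, which forms the peptide bond. Each ribosomal protein is needed in roughly equal amounts, and the genes are transcribed at a high rate in dividing and secretory cells alike, with further control of their messenger RNAs through mTOR. Sav1 is a scaffold, and Mst1 and Mst2 are the kinases, of the Hippo pathway, which restrains the coactivator Yap and so limits liver size and tumour formation. In whole tissue, fewer cells of a type and less RNA per cell cannot be told apart.

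Promoters of ribosomal protein genes share short sequence features, and windows from 250 bases before to 50 bases after the annotated start were available from RefSeq (GRCm38.p6) for 48 of the 58 genes, in 58 windows. The ETS core CCGGAAG, searched on both strands, lay in 39.7% of these windows and in 8.86% of all 32851 promoter windows of the same length. The pyrimidine stretch CTTTCC, searched only on the strand as given, which reads in the direction of the gene, lay in 36.2% of them against 14.1% of all windows. Between 20 bases before and 30 bases after the start, where the pyrimidine tract of these genes lies, the shares were 13.8% and 2.4%. The GC box GGGCGG on both strands was found in 58.6% against 35.7%, the YY1 core AAGATGG on both strands in 12.1% against 6.34%, the E-box CACGTG in 13.8% against 7.15%, and the TATA box TATAAA on the given strand in 6.9% against 8.32%. The motifs were counted separately; none contains another, although matches may overlap. A match describes these letters and is not evidence of a bound factor.

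The sequences below run from 100 bases before to 30 bases after the start and show 4 of the 8 genes with the largest rise in Sav1 tumours, the stalk gene Rplp0, which rose from surrounding liver to tumour, and Rpl22, which did not rise. They were chosen with the values known. Capitals mark the motifs listed above. Rpl12 lies at chr2:32961612-32961741 (plus strand), Rps19 at chr7:24884492-24884621 (plus), Rpl26 at chr11:68901466-68901595 (plus), Rpl31 at chr1:39367751-39367880 (plus), Rplp0 at chr5:115559367-115559496 (plus) and Rpl22 at chr4:152324336-152324465 (plus).
Rpl12: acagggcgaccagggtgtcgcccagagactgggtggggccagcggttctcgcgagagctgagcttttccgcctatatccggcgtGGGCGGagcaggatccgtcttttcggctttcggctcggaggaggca
Rps19: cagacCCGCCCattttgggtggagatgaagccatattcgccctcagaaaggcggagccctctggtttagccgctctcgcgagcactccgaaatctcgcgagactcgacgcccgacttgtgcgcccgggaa
Rpl26: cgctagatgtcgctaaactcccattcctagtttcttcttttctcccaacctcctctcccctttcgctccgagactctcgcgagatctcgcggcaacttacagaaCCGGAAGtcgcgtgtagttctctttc
Rpl31: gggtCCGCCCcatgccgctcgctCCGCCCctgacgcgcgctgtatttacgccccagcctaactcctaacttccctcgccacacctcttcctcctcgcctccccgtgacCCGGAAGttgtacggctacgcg
Rplp0: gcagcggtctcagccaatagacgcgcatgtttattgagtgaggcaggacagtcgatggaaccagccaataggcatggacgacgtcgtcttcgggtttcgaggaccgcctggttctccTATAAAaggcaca
Rpl22: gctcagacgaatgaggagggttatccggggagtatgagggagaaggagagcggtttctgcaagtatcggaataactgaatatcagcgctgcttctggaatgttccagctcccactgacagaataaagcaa
The ETS core begins a few bases after the start in Rpl26 and Rpl31 and is absent from the printed stretches of Rpl12, Rps19, Rplp0 and Rpl22. The printed stretch of Rpl22 holds none of the 6 motifs, but its full window holds a YY1 core at -153. Where a gene has several annotated starts, the most upstream is printed. A further annotated start of Rpl22 has the pyrimidine stretch at -32.

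Each array carried 45281 probes, with median signals from 78.5 to 111.6, and 34.8% to 55.0% of its probes were above the estimated background. Precision is limited by how many arrays each group has. The probe for Sav1 read 8.93 to 9.57 (log2 signal) in the 3 Sav1 flox livers and 8.43 to 9.91 in the 11 Sav1 tumours, and the probe for Stk4, which encodes Mst1, read 9.59 to 9.83 in Mst1/2 flox livers and 9.58 to 9.96 in Mst1/2 tumours. No probe was named for Stk3, which encodes Mst2. The places of the probes relative to the deleted exons are not given in the sources used here. These values therefore do not check the deletions and the groups rest on the labels. Probes at background level divided the arrays into 3 sets: all Sav1 flox livers lay in a first set with 3 surrounding samples and 3 tumours of that genotype, a second set held 4 Sav1 surrounding samples and 2 Sav1 tumours, and all Wt and Mst1/2 arrays lay in the third with 6 Sav1 tumours. What separates the sets is not given in the labels.

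The normal livers did not form a level baseline for ribosomal protein genes. The mean log2 signal of the 54 genes was 12.54 in Sav1 flox liver 1, 11.28 in liver 2 and 12.54 in liver 3. It was 11.59 in Wt liver 7 and 12.40 in Wt liver 8, and it ranged from 12.34 to 12.45 in the Mst1/2 flox livers. Liver 2 of the Sav1 flox group and liver 7 of the Wt group therefore stood apart, and results against the Sav1 flox livers are given with and without liver 2. Each of the 25 arrays of the 4 Sav1 -/- and Mst1/2 -/- groups, from 12.60 in a Sav1 surrounding sample to 13.40 in a Sav1 tumour, lay above the highest normal liver.

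**Figure D1:**
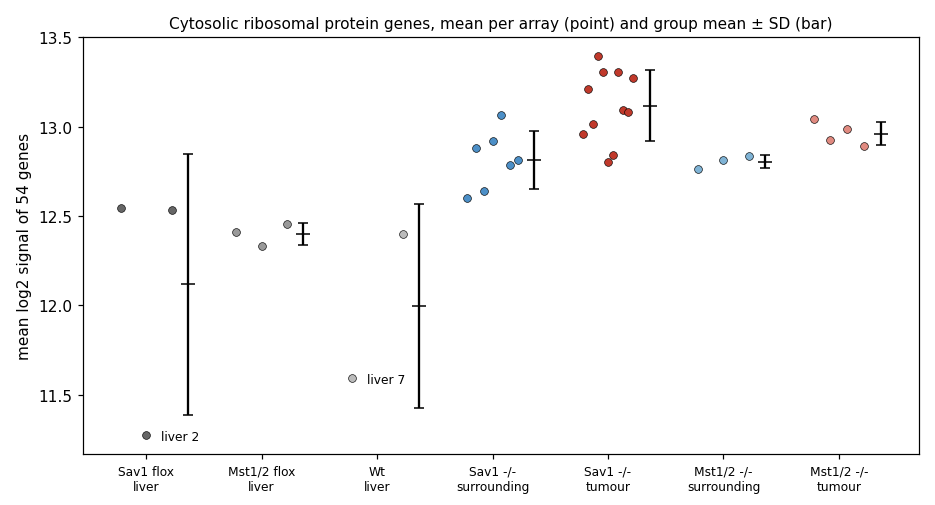
Mean log2 signal of the 54 tested ribosomal protein genes on each array (points), by group, with the group mean and SD (bars). Sav1 flox liver 2 (11.28) and Wt liver 7 (11.59) lie below the other normal livers (12.34 to 12.54), and all 25 surrounding and tumour arrays lie above them (12.60 to 13.40).

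Liver 2 was low across most of the family. Relative to the mean of livers 1 and 3 the median difference of the 54 genes was -1.33 on the log2 scale, and 39 of them were lower by more than 1, against 4.13% of all genes tested. The mitochondrial ribosomal protein genes, which encode the separate ribosome of the organelle, had a median of -0.83 in the same liver. Translation factors had a median of 0.03, ribosome biogenesis genes 0.20 and all genes 0.04. Wt liver 7 against Wt liver 8 gave medians of -0.88 for the cytosolic genes, -0.86 for the mitochondrial genes and 0.02 for all genes, so the same families were low in both livers. Hepatocyte markers averaged 14.08 in liver 2 against 13.70 and 13.85 in livers 3 and 1, its median signal was 93.0 and 38.5% of its probes were above background, all 3 values slightly above those of livers 1 and 3. T and NK cell markers averaged 6.18 in liver 2 against 6.60 and 6.77, and proliferation markers 7.59 against 7.12 and 7.30.

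**Figure D2:**
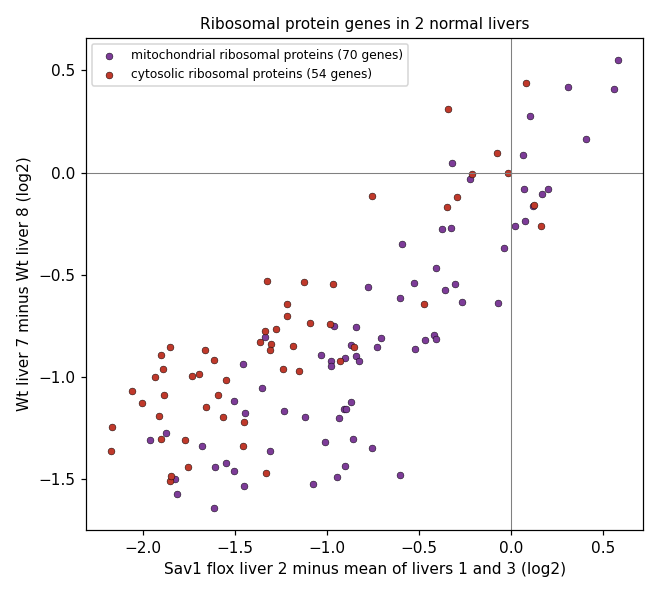
Each point is a gene, with its log2 difference between Sav1 flox liver 2 and the mean of livers 1 and 3 (horizontal axis) and between Wt liver 7 and Wt liver 8 (vertical axis). Most of the 54 cytosolic and 70 mitochondrial ribosomal protein genes are below 0 on both axes, with medians of -1.33 and -0.88 for the cytosolic genes.

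The comparison of Sav1 tumours with Sav1 flox livers asked how carcinomas that arose without Sav1 differ from normal liver. In the 11 tumours 43 of the 54 ribosomal protein genes rose and 0 fell by limma at an adjusted p under 0.05, also 0 at an unadjusted p under 0.05, where 17% of all genes tested rose and 15.8% fell. Their median difference was 1.04 on the log2 scale against 0.05 for all genes. Without liver 2, 25 of the 54 rose and 0 fell, against 10.7% of all genes rising and 9.89% falling, and the median was 0.64. The groups did not overlap, with every tumour above every flox liver, for 24 of the genes, against 8.22% of all genes. Within the first array set, which held 3 of the tumours and all 3 flox livers, the median was 1.05 and 6 genes passed, and without liver 2 it was 0.57 with 0 passing. When the array set entered the fit as a block, 41 rose, and 13 did so without liver 2. With 75th percentile scaling in place of quantile normalization and liver 2 left out, 10 rose, 2 fell and the median was 0.31. With that scaling and all arrays, 35 rose and the median was 0.83, where that of all genes was -0.29.

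Rpl12, a large subunit protein at the base of the stalk, had the largest difference. Its log2 signal was 12.74, 10.53 and 12.44 in Sav1 flox livers 1, 2 and 3, and 13.19, 14.06 and 14.25 at the lowest, median and highest of the 11 tumours. All tumours lay above all flox livers, and liver 2 lay far below its mates. The difference was 1.91 ± 0.30 (SE), a 3.76-fold rise (adjusted p = 3.29e-05), and 1.22 without liver 2 (adjusted p = 0.00218). Rps19, a small subunit protein needed to mature the small subunit's RNA and mutated in human Diamond-Blackfan anaemia, read 13.37, 11.38 and 13.16 in the flox livers and 13.96, 14.32 and 14.85 at the lowest, median and highest tumour. The groups did not overlap, and the gene rose by 1.65 ± 0.26 (adjusted p = 3.29e-05) and by 1.02 without liver 2 (adjusted p = 0.00185). A second Rps19 probe, above background on 28 arrays, did not rise, with a difference of -0.39 (adjusted p = 0.1 by limma).

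**Figure D3:**
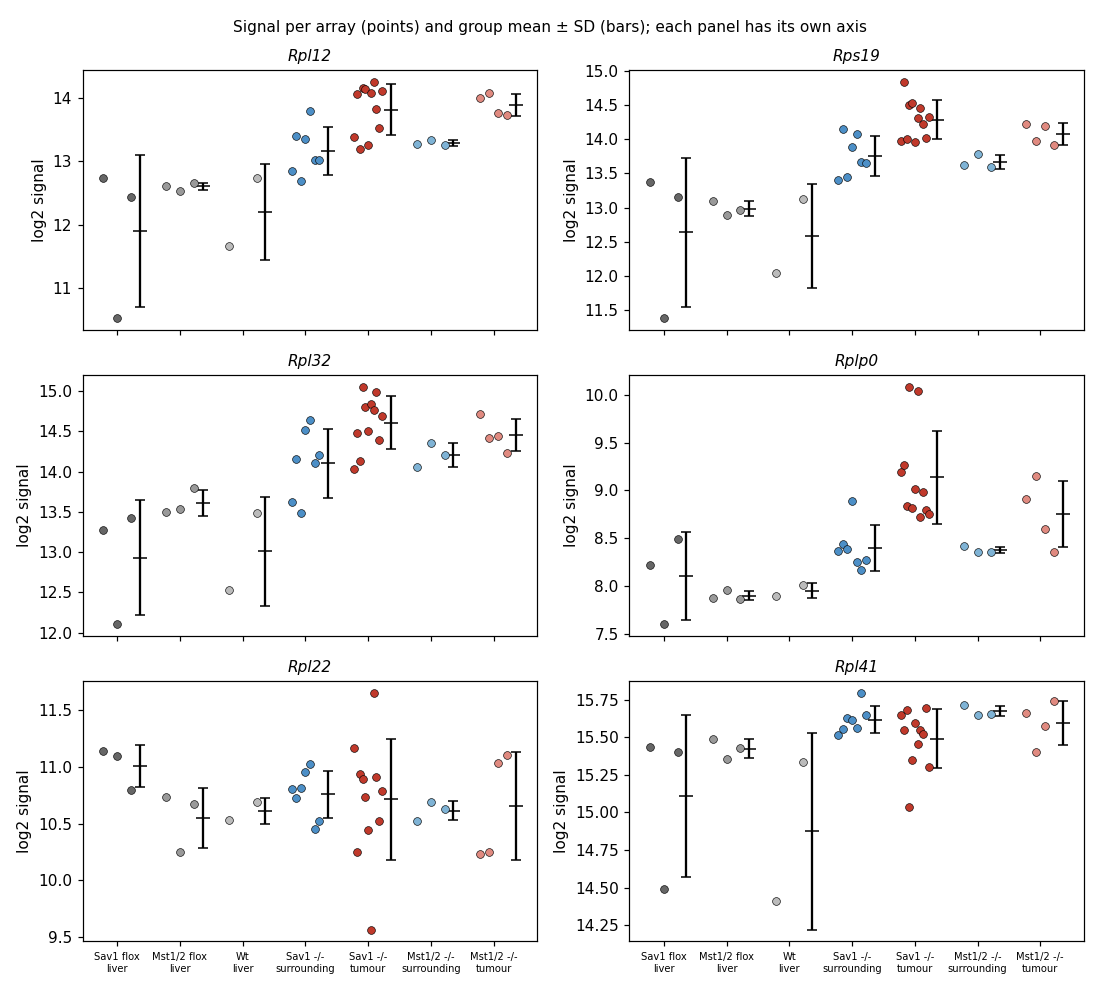
Log2 signal per array (points) with group mean and SD (bars) for Rpl12, Rps19, Rpl32, Rplp0, Rpl22 and Rpl41, each on its own axis. Rpl12 reads 13.19 to 14.25 in Sav1 tumours against 10.53 to 12.74 in Sav1 flox livers, whereas Rpl22 reads 9.57 to 11.65 against 10.80 to 11.14 and overlaps.

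Among the other large subunit genes, Rpl32 read 13.27, 12.11 and 13.42 in the Sav1 flox livers and 14.03, 14.69 and 15.05 at the lowest, median and highest tumour. It rose by 1.67 ± 0.25 and, without liver 2, by 1.26, the largest difference of the family in that fit (adjusted p = 0.00116). Rpl29 read 10.85, 9.82 and 12.11 in the flox livers against 11.92, 12.59 and 13.06, and its ranges overlapped although the difference of 1.57 ± 0.33 passed (adjusted p = 0.000693), and it was 1.02 without liver 2 (adjusted p = 0.0366). A second Rpl29 probe, above background on 33 arrays, had the opposite sign, at -1.04 (adjusted p = 0.465 by limma). Rpl3, which lies close to the peptidyl transferase centre, behaved differently from most of the family in the normal livers. It read 13.86, 13.90 and 13.97 in the Sav1 flox livers and 13.91 in both Wt livers, so neither liver 2 nor liver 7 was low. In the tumours Rpl3 read 14.46, 14.78 and 15.11, and the rise of 0.87 ± 0.15 was 0.87 without liver 2 (adjusted p = 0.00124). In all, 23 of the 29 large subunit genes rose with a median of 1.04, and 16 rose without liver 2 with a median of 0.69.

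Of the 22 small subunit genes, 17 rose with a median difference of 1.02, and 8 did so without liver 2, with a median of 0.60. Rps26, a protein of the messenger RNA exit channel, read 13.42, 11.47 and 13.30 in the flox livers and 14.06, 14.30 and 14.64 at the lowest, median and highest tumour. It rose by 1.62 ± 0.24 (adjusted p = 1.19e-05) and by 0.99 without liver 2 (adjusted p = 0.000281). Rps14, a platform protein lost in a human myelodysplastic syndrome, rose by 0.84 ± 0.15 and by 0.43 without liver 2 (adjusted p = 0.00628). Rps6, the substrate of the S6 kinases, read 13.09, 11.55 and 12.67 in the flox livers and 10.97, 12.98 and 13.54 in the tumours. Its difference of 0.34 ± 0.34 did not pass (adjusted p = 0.461) and was -0.11 without liver 2, and the tumours spread on either side of the flox livers.

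The stalk, a flexible arm of Rplp0 with Rplp1 and Rplp2 that recruits the elongation factors, rose in all of its 3 genes, and 1 of 3 passed without liver 2. Rplp0 read 8.22, 7.60 and 8.49 in the flox livers and 8.72, 8.98 and 10.08 at the lowest, median and highest tumour. Its ranges did not overlap, and it rose by 1.03 ± 0.23 (adjusted p = 0.00139) and by 0.78 without liver 2 (adjusted p = 0.0376). Rplp2 rose by 1.12 ± 0.26, and the difference was 0.54 without liver 2 (adjusted p = 0.104). Rplp1 read 15.54, 14.20 and 15.42 in the flox livers against 15.15, 15.66 and 15.85 in the tumours, so livers 1 and 3 lay within the tumours' range. Its rise of 0.51 ± 0.18 became 0.09 without liver 2 (adjusted p = 0.721) and -0.59 with 75th percentile scaling besides.

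The 11 genes that did not pass were Rpl30, Rps2, Rpl4, Rpl41, Rpl3l, Rps27l, Rps6, Rpl21, Rpsa, Rpl22 and Rps15a, with differences from 0.64 for Rpl30 to -0.34 for Rps15a. For Rpl4 this holds for the main probe only, at 0.46. A second Rpl4 probe, above background on 30 arrays, rose by 1.31 (adjusted p = 0.00281 by limma). The further probes of Rpl30, Rps2 and Rpl21 did not pass. Rpl22, a large subunit protein with a special role in lymphocyte development, read 11.14, 11.10 and 10.80 in the Sav1 flox livers, with liver 2 inside the group. The tumours read 9.57, 10.79 and 11.65 at the lowest, median and highest, and the difference of -0.30 ± 0.25 did not pass (adjusted p = 0.375). Rpl22l1, the paralog whose messenger RNA Rpl22 is known to repress in the mouse, lies outside the naming rule. Rpl22l1 read 7.39, 8.07 and 8.33 at the lowest, median and highest of the 3 flox livers and 8.86, 10.71 and 11.64 at those of the 11 tumours. Rpl22l1 rose by 2.54 ± 0.52 (adjusted p = 0.000482) and by 2.27 without liver 2. The level of Rpl22l1 moved with the array set: in the first set, which holds all the flox livers, the 3 tumours read 8.86 to 9.34 and the 3 surrounding samples 8.46 to 8.60, whereas the other 8 tumours read 10.29 to 11.64. Within the first set the difference was 1.18 ± 0.24 (adjusted p = 0.0275), and the part of the array set in the larger value was not tested.

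**Figure D4:**
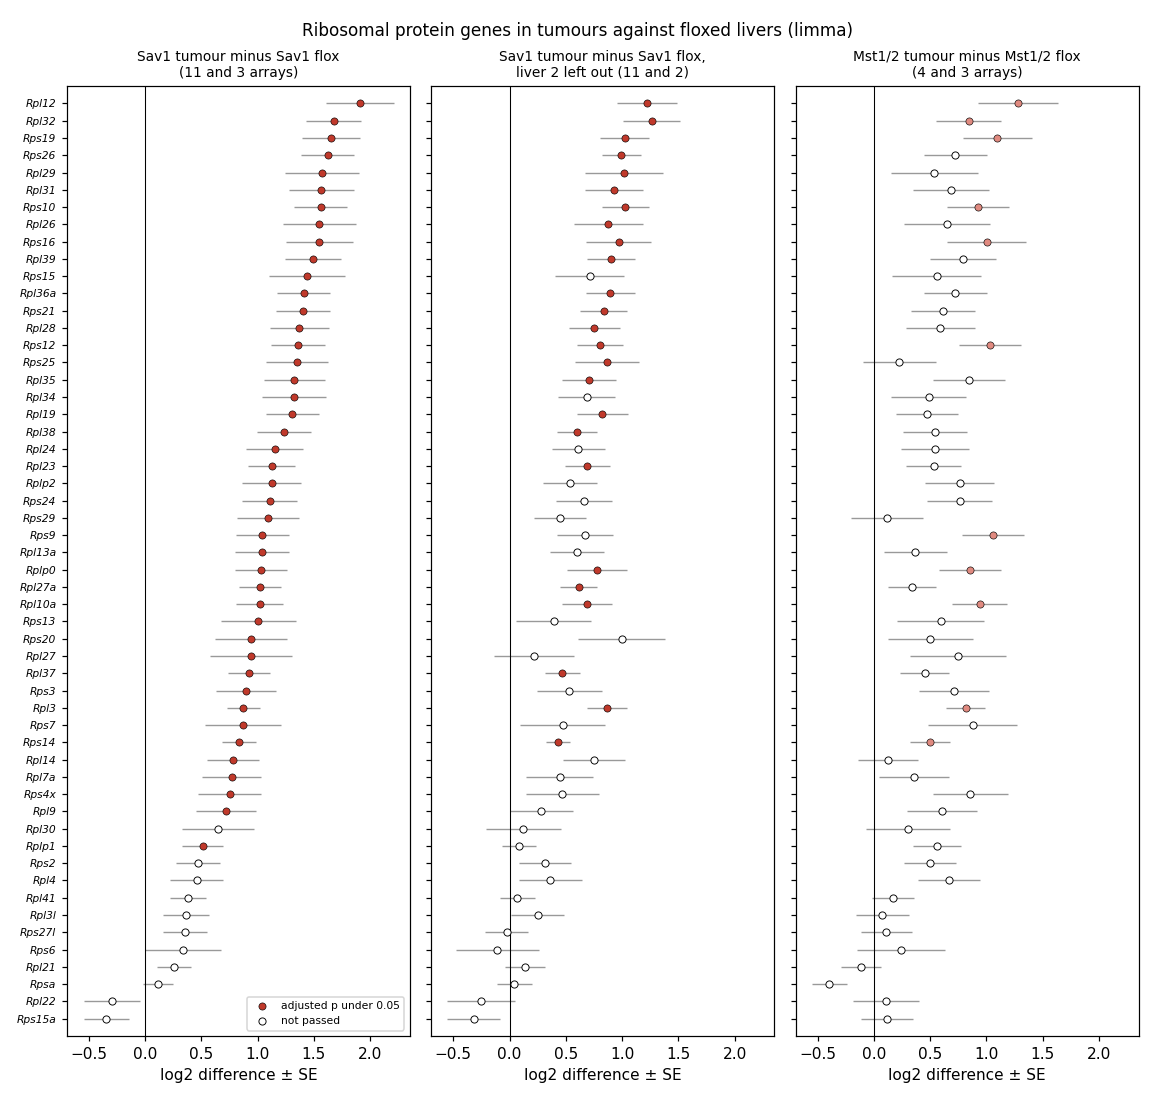
Log2 difference with its SE for each of the 54 genes, in the order of the first panel, for Sav1 tumours against Sav1 flox livers with all arrays (left), without liver 2 (middle) and for Mst1/2 tumours against Mst1/2 flox livers (right). Filled points passed at an adjusted p under 0.05, and they number 43, 25 and 11.

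Some members are tissue-restricted or paralogous forms. Rps27l, a p53-responsive paralog of Rps27, read 14.78, 13.62 and 14.76 in the Sav1 flox livers and 14.35, 14.70 and 15.18 in the tumours, with a difference of 0.36 ± 0.19 that did not pass and of -0.03 without liver 2. Rpl3l, the striated muscle paralog of Rpl3, read 6.17 to 6.72 in the flox livers and 6.23 to 7.50 in the tumours, near background, with a difference of 0.36 ± 0.20 that did not pass. Rpl39, the X-linked partner of the testis-enriched Rpl39l, rose by 1.49 ± 0.25 and by 0.90 without liver 2 (adjusted p = 0.00406), while Rpl39l was above background on 2 arrays and was not tested. Rpl6 was above background on 2 arrays and Rpl17 and Rps23 on 0. The probes of Rpl14 and Rps20 were not well above background on any Sav1 flox array, and each was above it on 8 Sav1 tumours. Against the background level of the flox arrays, the tumour mean was 1.07-fold higher for Rpl14 and 1.29-fold for Rps20. These folds are not strict bounds, since the tumour means include arrays at background. Rps20 was above background on 0 normal livers and was tested only through arrays of the other groups, so its p-value is not independent of that choice. The adjusted p was 0.0102 for Rpl14 and 0.0258 for Rps20 by limma, and neither passed without liver 2. With all arrays, both genes are counted among those that rose. Both also moved with the array set. In the first set the 3 tumours read 6.06 to 6.33 for Rpl14 and 6.08 to 6.40 for Rps20, overlapping the flox livers at 5.84 to 6.31 and 5.99 to 6.26, and the differences of 0.16 and 0.10 there did not pass.

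The measured differences of the family were not all of 1 size. When each gene was taken relative to the mean of the 54 on the same array, 14 genes exceeded the mean difference in Sav1 tumours and 10 fell short of it, where 2.55% of all genes exceeded it and 75.6% fell short. Deviations from the family's own mean always lie on both sides of it. The shares of all genes include the rise of that mean, which is subtracted from every gene. Rpl12 (0.91 above the mean), Rpl32 (0.67), Rps19 (0.65) and Rps26 (0.62) led the first set. Rps15a (-1.34), Rpl22 (-1.29), Rpsa (-0.89) and Rpl21 (-0.75) led the second. The probes of Rps15a, Rpsa and Rpl21 are dim, with a mean log2 signal under 8. Without liver 2 the first set held Rpl32, Rpl12, Rps10 and Rps19, and the second held Rps15a, Rpl22, Rps27l, Rpsa, Rpl41 and Rplp1, against 3.44% and 44.1% of all genes. The genes that exceeded the mean without liver 2 came from both subunits, with Rpl32 at 0.68, Rpl12 at 0.65, Rps10 at 0.45 and Rps19 at 0.44.

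The size of a difference also varied with the brightness of the probe. Of 6 genes with a mean log2 signal under 8, 2 rose in Sav1 tumours, with a median difference of 0.31. Of 19 genes between 12 and 14, 18 rose with a median of 1.41, and of the 15 brightest, 12 rose with a median of 0.92. Without liver 2 the counts were 0 of 6 (median 0.19), 11 of 19 (0.86) and 8 of 15 (0.47). Rps15a, Rpl21, Rpl3l and Rpsa, which did not pass, were among the 6 dimmest, and Rpl41 and Rps27l among the 15 brightest. The part of probe response in these differences was not tested. Another 26 probes above background measured 18 of the genes a further time, and 12 of them rose in Sav1 tumours, 0 fell and 21 had the sign of the main probe. The others were probes of Rpl29 (-1.04), Rps19 (-0.39), Rps24 (-0.23), Rps13 (-0.07) and Rpl21 (-0.02). Without liver 2, 8 of the 26 rose, 0 fell and 19 had the sign of the main probe.

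Liver labelled as surrounding the Sav1 tumours was compared with Sav1 flox liver to ask whether this tissue also differed. By limma 28 of the 54 genes rose and 0 fell, with 1 lower at an unadjusted p under 0.05, where 4.94% of all genes rose and 5.4% fell, and the median was 0.72. Without liver 2, 0 of the 54 rose or fell by limma, 8 were higher at an unadjusted p under 0.05, 1.05% of all genes rose and 1.2% fell, and the median was 0.31. Against Sav1 flox liver alone, the calls in surrounding liver thus depended on that 1 normal liver. Against the mean of the 3 normal liver groups, with Sav1 flox liver 2 and Wt liver 7 left out, 17 rose with a median of 0.39. The share of all genes that rose against this control is not given here, so the count has no background beside it. This control includes the Mst1/2 flox livers, which lie in another array set and read high for Xist, as described below. Rpl12 had the largest rise, with 12.68, 13.02 and 13.79 at the lowest, median and highest of the 7 samples, and the lowest of them lay just below flox liver 1. It was higher by 1.26 ± 0.32 (adjusted p = 0.0135) and by 0.57 without liver 2 (adjusted p = 0.27). Rpl26, Rpl32, Rps19 and Rps10 followed at 1.22, 1.17, 1.12 and 1.10, and these differences were 0.55, 0.76, 0.49 and 0.57 without liver 2. The second Rps19 probe differed by -0.41 with all arrays (adjusted p = 0.167 by limma). The ranges did not overlap for 14 genes, among them Rpl32, Rps19 and Rps10, against 9.02% of all genes. Within the first array set the median was 0.65 with 0 genes passing, and the block on array set left 1. Relative to the mean of the family 5 genes exceeded it and 3 fell short (1.43% and 56.7% of all genes), and 0 did either without liver 2 (0.28% and 0.594%). In the same comparison 4 of 6 T and NK cell markers, 5 of 7 macrophage markers and all 3 neutrophil markers tested rose, and the macrophage mean was 10.69 to 12.72 in surrounding liver against 9.23 to 9.91 in the flox livers. Without liver 2, 3 macrophage and 2 neutrophil markers rose and 0 T and NK cell markers passed by limma (4 higher at an unadjusted p under 0.05). Their part in the result was not tested.

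Sav1 tumours were then set against surrounding liver of the same genotype. The difference does not use the normal livers, but its SE does, since the fit over 33 arrays shares a spread per gene. The median SD over the 54 genes was 0.79 in Sav1 flox and 0.62 in Wt livers. It was 0.28 in Sav1 surrounding liver and 0.34 in Sav1 tumours. The part of the normal livers in this SE was not tested. Here 3 of the 54 genes rose and 0 fell by limma (22 higher and 0 lower at an unadjusted p under 0.05), where 6.82% of all genes rose and 5.66% fell, and 48 of 54 differences were above 0 with a median of 0.33. The 3 genes were Rplp0, Rps26 and Rpl3. Rplp0 read 8.16, 8.37 and 8.89 at the lowest, median and highest of the 7 surrounding samples against 8.72, 8.98 and 10.08 in the 11 tumours, a rise of 0.74 ± 0.17 (adjusted p = 0.00456). The highest surrounding sample, number 4, overlapped the tumours. Rps26 read 13.53, 13.68 and 14.12 in surrounding liver and rose by 0.62 ± 0.18 (adjusted p = 0.0186). Rpl3 read 13.97, 14.21 and 14.94 and rose by 0.38 ± 0.11 (adjusted p = 0.0213). The call of Rpl3 was lost in 6 of 9 alternatives, with both scalings, the array set as a block, within the first set and on the arrays with shared numbers with or without the block (adjusted p up to 0.528), that of Rps26 in 2 of 9 and that of Rplp0 in 1 of 9. Relative to the mean of the family, 0 genes exceeded it and 2, Rpl41 (-0.43) and Rplp1 (-0.39), fell short, against 1.55% and 12.1% of all genes. Within the first array set the median was 0.36 with 0 genes passing. Other settings raised the count: 6 genes rose with the mean of all probes of a gene. With the replicate number as a block 13 rose, but the correlations of these pairs ran from 0.07 to 0.69 and the labels do not pair them.

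Tumours without Mst1/2 were compared with Mst1/2 flox livers. In the 4 tumours 11 of the 54 genes rose and 0 fell by limma (26 higher and 1 lower at an unadjusted p under 0.05), with a median difference of 0.58. Of all genes 11% rose and 8.86% fell. With 75th percentile scaling 1 rose and 1 fell, the median was 0.095, and Rps14 changed sign to -0.035. That scaling also moved the median of all genes, which was -0.32 there. The 11 were Rpl12, Rps19, Rps9, Rps12, Rps16, Rpl10a, Rps10, Rplp0, Rpl32, Rpl3 and Rps14. Another 26 probes above background measured 18 of the genes a further time. Of these probes 4 rose and 0 fell by limma, and 15 had the sign of the main probe. Rpl31 did not pass on its main probe (0.69) but rose on further probes, by 0.83 and 1.07 (adjusted p = 0.0237 and 0.00229 by limma). The ranges did not overlap, with every tumour above every flox liver, for 40 genes, against 22.4% of all genes. Leaving out 1 array lowered the count of 11 to 6 without flox liver 5 or without tumour 1, and to 7 without flox liver 4, flox liver 6 or tumour 2. Of 17 alternatives, Rps16 and Rps14 lost the call in 9, and Rpl32 and Rplp0 in 8. The SD over the 3 Mst1/2 flox livers ranged from 0.01 to 0.26 over the 54 genes, with a median of 0.098, against 0.047 to 1.29 and 0.79 in the Sav1 flox livers. The fit shares 1 spread per gene over all groups, so the SE in the Mst1/2 comparisons also includes the Sav1 flox and Wt livers. The Mst1/2 flox livers read 10.55 to 11.21 for Xist, which is expressed from an inactive X chromosome, and every other array read 6.48 or less, so sex and genotype cannot be told apart in comparisons with these livers. The X-linked genes Rpl36a, Rpl39 and Rps4x differed by 0.72, 0.79 and 0.86, and none of the 3 passed.

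Rpl12 again had the largest rise. It read 12.61, 12.54 and 12.66 in Mst1/2 flox livers 4, 5 and 6 and 13.99, 14.07, 13.75 and 13.73 in tumours 1 to 4, a clear separation, with a difference of 1.28 ± 0.35 (adjusted p = 0.0109). Rps19 read 13.10, 12.89 and 12.96 against 14.22, 13.98, 14.20 and 13.91 and rose by 1.09 ± 0.31 (adjusted p = 0.012). The second Rps19 probe did not rise here either, at -0.22 (adjusted p = 0.506 by limma). Rps9, a small subunit protein that bears on decoding accuracy, read 14.10, 13.71 and 13.84 against 14.92, 14.91, 14.91 and 15.02 and rose by 1.06 ± 0.28 (adjusted p = 0.00724). The tumours differed among themselves by less than the flox livers did. Rps12 rose by 1.03 ± 0.28 (adjusted p = 0.0091) and Rps16, whose tail reaches the decoding site, by 1.00 ± 0.35 (adjusted p = 0.0411). Rpl3 read 13.86, 13.98 and 14.26 against 14.85, 14.90, 14.84 and 14.79 and rose by 0.82 ± 0.17, with the smallest adjusted p of the family in this comparison (0.0013). Rplp0 rose by 0.85 ± 0.27 (adjusted p = 0.0276), and Rplp1 and Rplp2 differed by 0.56 and 0.76 without passing. A second Rplp0 probe, above background on 25 arrays, differed by only 0.096 (adjusted p = 0.888 by limma).

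At the low end, Rpsa, which is also known as the laminin receptor precursor, read 7.03, 6.92 and 6.86 in the Mst1/2 flox livers and 6.45, 6.60, 6.57 and 6.55 in the tumours. All tumours lay below all flox livers, and the difference of -0.40 ± 0.16 did not pass (adjusted p = 0.0719). Relative to the mean of the family 3 genes exceeded it, Rpl12 by 0.72, Rps19 by 0.53 and Rps12 by 0.47, and Rpsa alone fell short, at -0.96, against 3.6% and 32.4% of all genes. The probe of Rpsa lies near background, and the part of probe response in its value was not tested. Rpl22 read 10.73, 10.25 and 10.67 in the flox livers and 10.23, 10.25, 11.03 and 11.10 in the tumours, with a difference of 0.10 ± 0.29. Rpl41, the shortest ribosomal protein, read 15.49, 15.36 and 15.43 against 15.66, 15.40, 15.58 and 15.74, with a difference of 0.17 ± 0.18. Neither passed, and their ranges overlapped. Rps6 differed by 0.24 ± 0.39 and Rps27l by 0.11 ± 0.23.

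Surrounding liver of Mst1/2 -/- mice differed from Mst1/2 flox liver in 1 gene of the 54, and 0 fell (8 higher and 0 lower at an unadjusted p under 0.05 by limma), where 2.55% of all genes rose and 1.32% fell. The gene was Rpl3, at 14.63, 14.72 and 14.73 in the 3 surrounding samples, above the 3 flox livers, with a rise of 0.66 ± 0.18 (adjusted p = 0.0378). This call was lost in 7 of 16 alternatives, namely both scalings and leaving out flox liver 4, flox liver 5 or any of the 3 surrounding samples (adjusted p from 0.00203 to 0.387 over the 16). The median of the family was 0.44, and 51 of 54 differences were above 0. Ranges did not overlap for 43 genes against 23.5% of all genes. Between Mst1/2 tumours and their surrounding liver 0 genes passed by limma in either direction, also 0 at an unadjusted p under 0.05, where 0.021% of all genes rose and 0.0489% fell. The median was 0.16 and the largest difference was that of Rpl12, at 0.60 ± 0.35.

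Direct comparisons between the genotypes found little. Sav1 tumours against Mst1/2 tumours had a median of 0.16, with 1 gene higher and 0 lower (7 and 0 at an unadjusted p under 0.05), where 1.38% of all genes were higher and 2.34% lower. The gene was Rpl21, at 7.51, 8.08 and 8.32 at the lowest, median and highest Sav1 tumour and 7.39, 7.73, 7.28 and 7.48 in Mst1/2 tumours. The ranges overlapped, and the difference was 0.50 ± 0.14 (adjusted p = 0.0362). The count was 0 with median scaling, on the arrays with shared numbers with or without the replicate block, and without Mst1/2 tumour 1, 3 or 4. Surrounding livers of the genotypes had a median of -0.00 and 0 genes passing by limma (2 higher and 0 lower unadjusted), where 0.468% of all genes were higher and 0.454% lower. With the replicate number as a block over their 3 shared numbers, 1 gene was lower in Sav1 surrounding liver. Sav1 flox and Mst1/2 flox livers differed by a median of -0.34, and by 0.14 without liver 2, with 0 genes passing in either fit (1 higher and 5 lower unadjusted with all arrays, 4 and 1 without liver 2). Of all genes 1.31% were higher and 2.17% lower with all arrays, and 0.58% and 1.12% without liver 2. The change from surrounding liver to tumour differed between the genotypes by a median of 0.15, and 0 genes passed by limma, also 0 at an unadjusted p under 0.05, where 0.021% of all genes passed with a larger change in Sav1 and 0.0629% with a smaller one.

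Genes that work with the ribosome were read from lists named for their function. Of 32 translation factor genes 10 rose and 2 fell in Sav1 tumours, with a median of 0.15, and without liver 2, 6 rose and 0 fell. The shares of all genes tested that rose and fell there were 17% and 15.8%, and 10.7% and 9.89% without liver 2. Eif3k, a subunit of initiation factor eIF3, rose by 1.90, Eif3c by 1.51, and Eif6, which keeps large subunits from joining too early, by 1.15. Without liver 2 these rises were 1.46, 1.63 and 1.06. Tpt1 and Naca, which carry pyrimidine tract messages like the ribosomal protein genes, rose by 1.49 and 1.28, and of these only Naca passed without liver 2. Of 44 ribosome biogenesis genes 14 rose and 1 fell, with a median of 0.30, and 10 rose and 1 fell without liver 2. They included Polr1c (1.40), a subunit of RNA polymerase I, the nucleolar proteins Ncl (1.17), Gar1 (1.06) and Nop58 (0.70), and the helicase Ddx21 (1.04). Tsr1, a small subunit assembly factor, fell by 1.79. In Mst1/2 tumours 5 of 32 translation factors rose and 0 fell, with a median of 0.14, and 7 of 44 biogenesis genes rose and 1 fell, with a median of 0.21, where 11% of all genes rose and 8.86% fell. Nop58 (1.48), Nop56 (1.41) and Npm1 (1.18) led there, and Tsr1 fell by 1.83.

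The mitochondrial ribosomal protein genes are read against the same shares of all genes. Of 70 tested, 14 rose and 9 fell in Sav1 tumours with a median of -0.01, and without liver 2, 0 rose (3 at an unadjusted p under 0.05 by limma) and 9 fell with a median of -0.29. In Mst1/2 tumours 0 rose, also 0 at an unadjusted p under 0.05, and 7 fell with a median of -0.32. Mrps27 fell by 1.25 and Mrpl44 by 0.81 in Sav1 tumours, and Mrpl34 by 1.09 and Mrps5 by 1.04 in Mst1/2 tumours. Among 18 genes of MYC and mTOR signalling 1 rose and 5 fell in Sav1 tumours, and 1 rose and 4 fell without liver 2. Eif4ebp1, a translation repressor that mTOR inactivates, rose by 1.37, while the mTOR inhibitor Deptor fell by 1.29, Pdcd4 by 1.17 and Mtor itself by 0.78. In Mst1/2 tumours Myc rose by 0.57 and Mtor and Larp1, which binds pyrimidine tract messages, fell by 0.91 and 0.80.

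**Figure D5:**
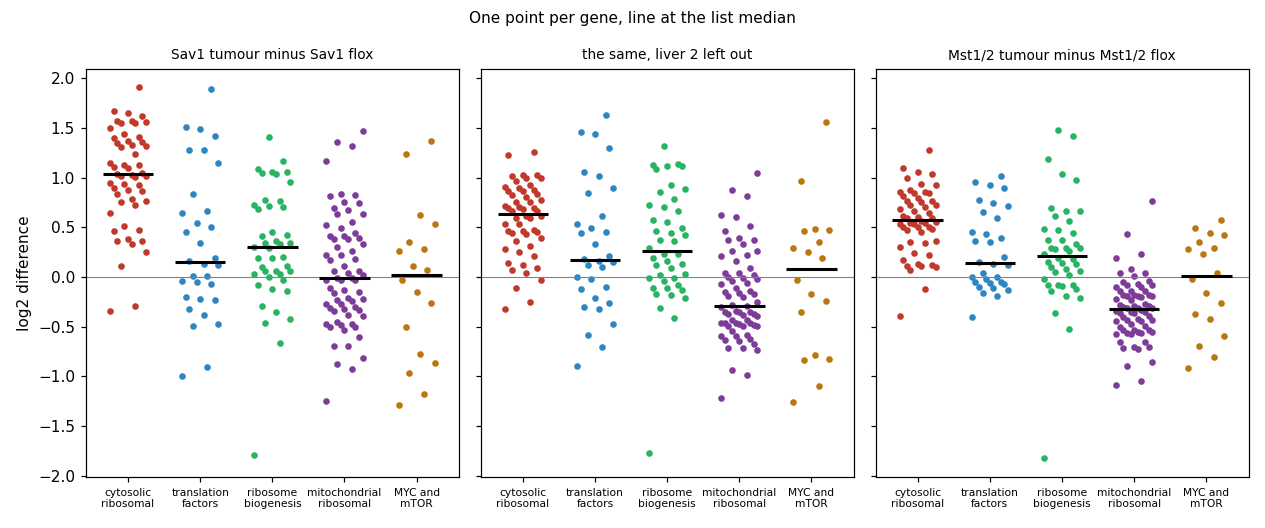
Log2 differences of single genes (points) and list medians (lines) for the cytosolic ribosomal protein genes, translation factors, ribosome biogenesis genes, mitochondrial ribosomal protein genes and MYC and mTOR genes, in Sav1 tumours against flox livers (left), the same without liver 2 (middle) and Mst1/2 tumours against flox livers (right). The cytosolic median is 1.04, 0.64 without liver 2 and 0.58 in the Mst1/2 comparison, against -0.01, -0.29 and -0.32 for the mitochondrial genes.

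Markers of other cell types and of dividing cells also differed in these comparisons. Among all genes 17% rose and 15.8% fell in Sav1 tumours, and 10.7% and 9.89% did so without liver 2. In Mst1/2 tumours the shares were 11% and 8.86%. A count such as 1 of 6 lies near these shares. Of 8 proliferation markers 7 rose in Sav1 tumours and 5 in Mst1/2 tumours, and their mean level was 7.12 to 7.59 in Sav1 flox livers, 7.97 to 9.48 in Sav1 tumours, 7.01 to 7.69 in Mst1/2 flox livers and 8.42 to 9.12 in Mst1/2 tumours. Of 6 T and NK cell markers 4 rose in Sav1 tumours and 0 in Mst1/2 tumours (3 at an unadjusted p under 0.05 by limma), with mean levels of 6.18 to 6.77 in Sav1 flox livers and 6.94 to 9.49 in Sav1 tumours. Of 7 macrophage markers 4 rose and 2, the Kupffer cell genes Clec4f and Vsig4, fell in Sav1 tumours, where the mean level was 9.19 to 11.03 against 9.23 to 9.91 in the flox livers. Of 8 hepatocyte markers 2, Apob and Cps1, fell in Sav1 tumours, and their mean level was 13.06 to 14.19 there against 13.70 to 14.08 in the flox livers. Of the other markers, 2 of 3 for neutrophils, 2 of 6 for stellate cells and 1 of 4 for biliary cells rose in Sav1 tumours, 1 stellate, 2 of 6 endothelial and 1 of 2 erythrocyte markers fell, and 0 of 4 for B and plasma cells passed by limma (1 higher at an unadjusted p under 0.05). Without liver 2, 7 proliferation, 3 T and NK cell, 2 macrophage, 2 neutrophil, 2 stellate and 1 biliary marker rose in Sav1 tumours, 1 macrophage, 1 hepatocyte, 1 stellate, 2 endothelial and 1 erythrocyte marker fell, and 0 B and plasma cell markers passed by limma (0 at an unadjusted p under 0.05).

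In Mst1/2 tumours 2 of 3 neutrophil, 2 of 4 biliary, 3 of 7 macrophage and 1 of 6 stellate markers rose and 1 of 6 endothelial markers fell, and 0 of 8 hepatocyte markers passed by limma (2 lower at an unadjusted p under 0.05). Of all genes 11% rose and 8.86% fell there. The mean of the neutrophil markers was 6.96 to 7.47 in Mst1/2 flox livers, 7.80 to 8.51 in surrounding liver and 8.23 to 11.07 in the tumours. The biliary mean was 6.93 to 6.99, 8.27 to 8.45 and 8.23 to 9.01 in the same order, and the T and NK cell mean was 6.62 to 6.72, 7.07 to 7.33 and 7.52 to 8.11. For each of the 3 lists all tumours lay above all flox livers. The macrophage mean was 9.85 to 9.97, 10.49 to 10.92 and 9.41 to 11.12, and the stellate mean 8.64 to 8.69, 9.71 to 10.31 and 9.06 to 10.09. The hepatocyte mean was 14.26 to 14.34 in flox livers and lower elsewhere, at 13.91 to 14.02 in surrounding liver and 13.81 to 14.02 in the tumours. In Mst1/2 surrounding liver 1 macrophage and 1 biliary marker rose, where 2.55% of all genes rose and 1.32% fell, and proliferation markers averaged 8.24 to 8.40. The part of these cells and of cell division in the levels of the ribosomal protein genes was not tested.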

How the data were processed

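The authors deposited bead summary signals as linear intensity values without normalization, which per the labels were exported with BeadStudio, and a table of log2 values. That table equals the quantile normalized log2 of the deposited intensity values to within 0.005, without background correction. Signals were corrected with normexp (offset 50), quantile normalized and log2 transformed in limma 3.58.1 (R 4.3.3). Differences of dim probes are understated by the offset. A probe counted as above background when it exceeded the 99th percentile of a background made by mirroring the signals below each array's mode. Genes took the probe with the highest mean in the deposited log2 table and were kept when above background on at least 3 arrays. Of 45281 probes, 34885 had 1 gene symbol, 18 several and 10378 none. One limma fit with a mean per group over 33 arrays gave each comparison, with two-sided moderated tests and Benjamini-Hochberg adjustment over 14302 genes at 0.05. The fit was tested on simulated data. Changes relative to the family came from the same fit after subtracting the mean of the 54 genes from each array.

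The members and lists were chosen with earlier results of these data known. Named with values are the 5 largest rises and falls per comparison, genes that differed from the family mean, paralogs, stalk genes, a few genes set by name and genes not above background; Rpl22l1, list genes and marker genes were picked as examples. Replicate numbers shared by groups were checked through the correlation of deviations from the group means: only Sav1 and Mst1/2 surrounding livers (3 pairs, 0.18 to 0.34) met the rule for pairing, which comes from the data and not from the labels. Scaling, filter, probe choice, array set, control group, replicate block and left-out arrays were varied. Figures were drawn with matplotlib 3.10.9 in Python 3.11.15.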

Additional observations from a re-analysis of the deposited data

Results flagged for a closer look

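In groups of 4 to 10 arrays, 110 groups of values were examined for an array far from its mates, of which chance alone would flag about 1 in 20, and 8 were flagged. Sav1 surrounding sample 4 accounted for 4 of them: Rpl27 (gap over range 0.648, at 12.71 against 13.76 for the nearest sample), Rps7 (0.573, at 13.27 against 14.03), Rplp0 (0.617, at 8.89 against 8.44) and Rps15a (0.734, at 7.56 against 6.93). Surrounding sample 5 was high for Rps2 (0.595, at 15.68 against 15.01). Mst1/2 tumour 2 stood apart for Rpl14 (0.837, at 6.93 against 6.40) and Rpl38 (0.837, at 14.72 against 15.09), and Mst1/2 tumour 4 for Rps9 (0.882, at 15.02 against 14.92). The Sav1 flox and Wt groups, with 3 and 2 arrays, were too small to be examined in this way.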

How the results depend on the processing

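Counts below are of the 54 genes, and the settings that leave out liver 2 were chosen after seeing the data. In all, 352 of 429 counts and medians stayed within their limits, and 474 of 764 single-gene values kept their direction and call; 286 lost the call and 4 reversed, and the causes were not tested. Median scaling shifted the median of all genes by up to 0.23 and 75th percentile scaling by as much as -0.33, both in Sav1 tumours against flox. In Mst1/2 tumours against flox 75th percentile scaling shifted it by -0.31. For Sav1 tumours against flox the median was 1.39 with median scaling, 0.69 against the averaged 3 normal groups without livers 2 and 7, and, without liver 2, 0.64 (also with the authors' log2 values, where 25 rose), 0.31 with 75th percentile scaling (10 rose, 2 fell), 0.61 with the array set as a block (13 rose) and 0.57 within the first set (0 rose; 6 with liver 2). For Sav1 surrounding liver against flox, 17 rose with 75th percentile scaling, 1 with the set as a block, 0 within the first set and 17 against the 3 normal groups without livers 2 and 7 (median 0.39); the median was 1.12 with median scaling. Without liver 2, 0 rose with median scaling, 75th percentile scaling (median 0.15), the authors' values (0.31), the set block (0.17) or within the first set (0.19). From Sav1 surrounding liver to tumour 1 rose with 75th percentile scaling, 6 with the mean of all probes and 0 within the first set. For Mst1/2 tumours against flox 1 rose and 1 fell with 75th percentile scaling (median 0.095), 1 fell with the set block, and 43 rose against the 3 normal groups (median 0.88), 27 without livers 2 and 7, and 30 against Sav1 flox livers (0.94). For Mst1/2 surrounding liver 0 rose with either scaling, 23 against the 3 normal groups (0.73), 7 without livers 2 and 7, and 17 against Sav1 flox livers (0.78). Shares of all genes are not given here for these other control groups. Between tumours of the genotypes 0 were higher with median scaling and 3 with the set block.

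Rps14 in Mst1/2 tumours against flox reversed to -0.035 with 75th percentile scaling, where the median of all genes was -0.32. With that scaling and without liver 2, Rplp1 reversed to -0.59 in Sav1 tumours and -0.40 in surrounding liver, and Rpl41 to -0.34 there. Leaving out 1 array at a time gave 25 to 45 rises and a median of 0.64 to 1.28 in Sav1 tumours, 0 to 31 and 0.31 to 1.01 in Sav1 surrounding liver, 6 to 11 in Mst1/2 tumours, 0 to 1 in Mst1/2 surrounding liver, 0 to 1 between tumours, and 0 to 2 lower, with a median of -0.57 to 0.14, between flox livers. With the replicate block, on arrays with shared numbers, 0 rose in Sav1 tumours and 0 in surrounding liver against flox (1 and 0 on the same arrays with no block), 13 from surrounding liver to tumour (correlations of pairs 0.07 to 0.69, own number highest in 4 of 7), 0 between tumours (0 with no block), and 1 was lower between surrounding livers (1 higher with no block). Dim probes, such as those of Rpl14, Rps20, Rpl3l and Rpsa, lie too near background for small differences to be read.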
